A study of Mus musculus with 14 samples.

Results

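The complement system of the mouse cornea was read here through 9 listed genes: the C1q chains C1qa, C1qb and C1qc, the components C3 and C4b, factor B (Cfb), the receptors C3ar1 and C5ar1, and the membrane regulator Cd55. They were chosen by gene symbol, and every probe set that carries one of these symbols in the reference table of the array was taken, whatever its signal. Of the 9 genes, 7 had a probe set with that symbol alone, out of 13660 genes tested, and all 14 of their probe sets passed the filter on low signals (a signal above 20 on at least 3 arrays). C4b was measured only by a probe set that also carries C4a, so its values are given as those of the shared probe set and enter no count of genes. No probe set of the table carries C3, and C3 was not analysed here.

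Corneal RNA was hybridised to 14 arrays, with 4 PN56 Klf5CN, 4 PN56 WT, 3 PN11 Klf5CN and 3 PN11 WT mice, where PN stands for the postnatal day. Klf5CN mice carried Klf5 loxP/loxP and Le-Cre/-, a Cre transgene active in the surface ectoderm and the epithelia derived from it, so that Klf5 is removed in the corneal epithelium and not in the stroma or in blood cells. The WT mice were their Klf5 loxP/loxP littermates without Cre, so all groups share the floxed alleles and a mixed strain background. Both corneas of a mouse were pooled into 1 sample, and the whole cornea was used, so that more cells of a type and more RNA per cell cannot be told apart in any value below. PN11 lies before the eyelids open and PN56 in young adult life.

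Complement is a set of plasma and tissue proteins that mark microbes and dying cells and call in leukocytes. C1q binds antibodies and damaged surfaces and starts the classical pathway, C4 forms part of the enzyme that cleaves C3, and factor B does the same work in the alternative pathway. Cleavage of C3 and C5 frees small peptides that act on leukocytes through C3ar1 and C5ar1, while Cd55 (decay accelerating factor) takes the cleaving enzymes apart on the surface of the body's own cells. In the mouse, tissue macrophages are a main source of C1q, and Cd55 is found on many cell types, epithelia among them.

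Signals are on the linear scale of the deposited tables, in which each array was scaled to the same mean, and differences are on the log2 scale after signals under 10 were set to 10. A gene was called higher or lower where the adjusted p was below 0.05 and the difference over 2-fold. Replicates of a group correlated at 0.939 to 0.985 over all tested probe sets. On 1 of 3 Klf5 probe sets, log2 signals were 4.35 to 6.44 in PN56 Klf5CN against 10.14 to 10.36 in PN56 WT, and 6.69 to 7.15 in PN11 Klf5CN against 10.18 to 10.41 in PN11 WT. Another was also lower in Klf5CN with no overlap, while the third overlapped at PN56 (8.69 to 9.59 in Klf5CN against 9.22 to 9.76 in WT), and where the probe sets lie relative to the deleted part was not examined. Of the 14 arrays, 2 stood apart by the ratio of the 3-prime to the 5-prime control probe sets, a sign of RNA integrity. PN11 Klf5CN replicate 3 had ratios of 72.5 for Gapdh and 3.07 for Actb, and PN56 Klf5CN replicate 4 had 1.57 and 2.63, where the other 12 arrays had 0.687 to 0.845 and 1.17 to 1.39. The differences of the complement genes and the counts of the lists are also given without each of them, while array orders and correlations include all 14 arrays.

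At PN56, 6 of the 7 genes were higher in Klf5CN corneas (C1qa, C1qb, C1qc, Cfb, C3ar1 and C5ar1) and 1 was lower (Cd55). Over all genes tested, 7.1% were called higher and 1.63% lower in that comparison. At PN11, 3 of the 7 were higher (C1qb, Cfb and C5ar1) and 0 lower, against 3.8% and 1.48% of all genes. The median difference of the 7 genes was 2.56 on the log2 scale at PN56 and 1.53 at PN11, beside 0.02 and -0.0012 over all genes. Without PN11 Klf5CN replicate 3 the count at PN11 was 5, with C1qa and C1qc added. It was 1, C5ar1, without PN11 WT replicate 1 and 5 without PN56 Klf5CN replicate 3, an array that enters this comparison only through the shared estimate of the spread.

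**Figure D1:**
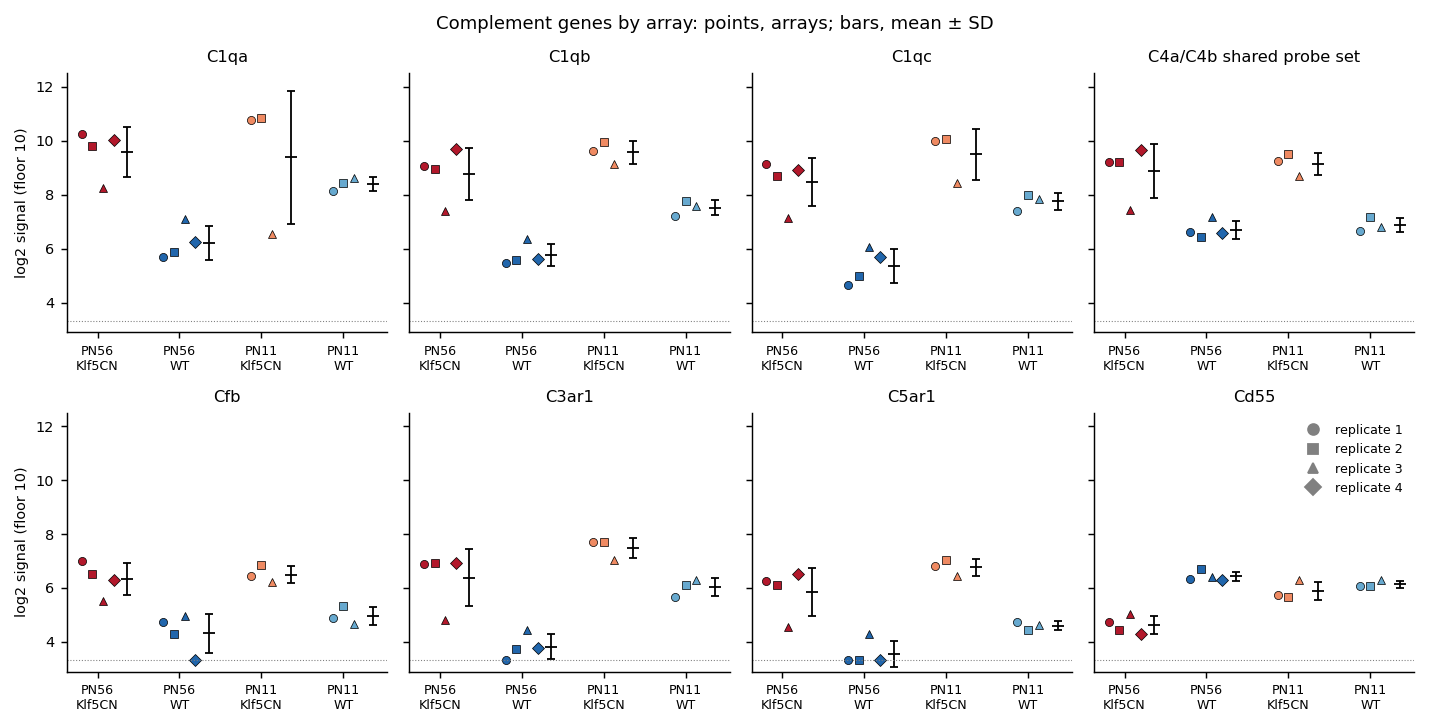
Log2 signal of each complement gene on each array (points, shaped by replicate; signals under 10 set to 10, dotted line), with the mean ± SD of each group beside them, for 4 PN56 Klf5CN, 4 PN56 WT, 3 PN11 Klf5CN and 3 PN11 WT arrays. All genes but Cd55 lie higher in PN56 Klf5CN than in PN56 WT, Cd55 lies lower, and C1qa on PN11 Klf5CN replicate 3 (log2 6.54) falls below the PN11 WT arrays.

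The C1q chains, which assemble into a single recognition molecule, showed the largest differences at PN56. C1qa signals were 1215, 904, 301 and 1041 in PN56 Klf5CN corneas, against 51.4, 58.7, 136 and 75.7 in PN56 WT corneas. The lowest Klf5CN cornea thus lay above the highest WT cornea, and C1qa was 10.3-fold higher in Klf5CN (log2 3.36, SE 0.74, adjusted p = 0.00701). C1qb, read by its brightest probe set, had 539, 491, 170 and 823 in PN56 Klf5CN corneas, against 44.3, 47.3, 83.0 and 49.5 in PN56 WT corneas. The groups did not overlap, and the difference was 3.02 (SE 0.37, adjusted p = 0.000157). C1qc had 558, 419, 142 and 481 in PN56 Klf5CN corneas, against 25.5, 31.6, 66.3 and 51.5 in PN56 WT corneas, a difference of 3.13 (SE 0.45, adjusted p = 0.000399). The other C1qb probe sets were also higher, by 2.77 and 2.04 at PN56 (adjusted p = 0.00174 and 0.000455), and stood at 1.96 and 1.65 at PN11 (adjusted p = 0.0541 and 0.0104). C1qc was called Present on 2 of the 4 PN56 WT arrays and C1qa and C1qb on all 4, so the mature WT cornea still gave a C1q signal.

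In all 3 chains the same PN56 Klf5CN cornea, replicate 3, was the lowest and the same PN56 WT cornea, also numbered 3, was the highest. Without PN56 Klf5CN replicate 3 the differences were 3.81 for C1qa, 3.47 for C1qb and 3.57 for C1qc. Without PN56 Klf5CN replicate 4, the array with the raised control ratios, they were 3.21, 2.65 (C1qb on another probe set, then its brightest, and 2.72 on the first) and 2.98, and all passed the test (adjusted p = 0.0215, 0.00665 and 0.00192). Across 4 against 4 corneas the exact two-sided permutation test of a single gene cannot go below p = 0.0286, and each of the 7 genes reached that value.

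At PN11, before eyelid opening, the chains were already above WT on most arrays. C1qb signals were 796, 985 and 556 in PN11 Klf5CN corneas, against 148, 217 and 191 in PN11 WT corneas, and C1qb was higher by 2.05 (SE 0.43, adjusted p = 0.0107). That call was lost without PN56 Klf5CN replicate 4 (1.96, adjusted p = 0.0571, on another C1qb probe set that was then the brightest, where the first one stayed at 2.05 with adjusted p = 0.00596) and without PN11 WT replicate 1 (1.90, adjusted p = 0.0605). C1qc had 1026, 1081 and 342 in PN11 Klf5CN corneas, against 168, 256 and 232 in PN11 WT corneas. These groups did not overlap either, but the difference of 1.75 (SE 0.51) did not pass the test (adjusted p = 0.0589). C1qa had 1764, 1821 and 93.1 in PN11 Klf5CN corneas, against 280, 346 and 393 in PN11 WT corneas, with a difference of 0.99 (SE 0.86, adjusted p = 0.574). Replicate 3 lay below every WT cornea for C1qa and above every WT cornea for C1qb and C1qc. Without that array, C1qa was higher by 2.41 (adjusted p = 0.0115), C1qb by 2.27 (adjusted p = 0.0135) and C1qc by 2.29 (adjusted p = 0.0152). With 3 corneas against 3 the exact permutation test cannot go below p = 0.1.

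The ratios of C1qa to the other chains set PN11 Klf5CN replicate 3 apart from the other 13 arrays. The log2 difference of C1qa minus C1qc, which compares arrays and not the 2 genes, was 0.43 to 1.12 on 13 arrays and -1.88 on PN11 Klf5CN replicate 3. For C1qa minus C1qb it was 0.21 to 1.17 on those 13 arrays and -2.58 on that replicate. C1qb minus C1qc ran from -0.37 to 0.80 over all 14 arrays. The low C1qa value thus stood on the array with the Gapdh control ratio of 72.5, and the part of RNA integrity in it was not tested.

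The genes of the chains lie side by side on chromosome 4 of the GRCm38.p6 assembly, C1qb at chr4:136880126-136886200, C1qc at chr4:136889801-136892936 and C1qa at chr4:136895916-136898844. The RefSeq promoter table held windows for 5 of the 7 genes (C1qb, C1qc, C3ar1, C5ar1 and Cd55). For C1qc, C5ar1 and Cd55 the start site of the window was not the annotated start of the gene. The windows of C1qb (chr4:136886151-136886450, minus strand) and C1qc (chr4:136892865-136893164, minus strand) are shown as those of neighbouring chains, both higher in Klf5CN at PN56. Capitals mark matches, on either strand, to CCNCNCCC (a GC box type to which Kruppel-like factors bind), GAGGAAGT (PU.1, a factor of macrophages), GGAANNNCC (part of an NF-kB site) and TTCNNNGAA (STAT factors).
C1qb: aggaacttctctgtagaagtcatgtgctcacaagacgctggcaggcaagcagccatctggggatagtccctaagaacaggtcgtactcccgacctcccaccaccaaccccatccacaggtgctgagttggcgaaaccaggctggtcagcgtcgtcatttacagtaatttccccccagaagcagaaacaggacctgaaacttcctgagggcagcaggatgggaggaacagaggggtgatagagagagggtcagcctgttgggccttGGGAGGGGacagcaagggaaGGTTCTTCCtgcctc
C1qc: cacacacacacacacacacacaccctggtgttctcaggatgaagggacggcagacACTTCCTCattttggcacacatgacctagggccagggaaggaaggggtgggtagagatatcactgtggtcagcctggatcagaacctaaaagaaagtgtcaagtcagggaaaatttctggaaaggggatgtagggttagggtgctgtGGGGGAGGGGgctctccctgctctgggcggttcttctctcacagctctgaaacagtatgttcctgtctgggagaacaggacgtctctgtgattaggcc
The C1qb window held a CCNCNCCC match on its minus strand and a GGAANNNCC match, starting at bases 266 and 286 of its 300. The C1qc window held overlapping CCNCNCCC matches at bases 203 and 205 and a GAGGAAGT match at base 56, all on the minus strand. Over all 32851 promoter windows of the table, 49.5% held CCNCNCCC, 3.2% GAGGAAGT, 18.5% GGAANNNCC and 8.3% TTCNNNGAA, and a match is a run of letters and not a bound site. The shorter CACCC box, found in 57.5% of all windows, was present in each of the 5 windows, and C1qc had 3 matches. The C3ar1 and C5ar1 windows held no CCNCNCCC, and none of the 5 held TTCNNNGAA.

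C4 and factor B, which supply the enzymes downstream, were higher at both ages. The probe set shared by C4a and C4b had 590, 598, 172 and 808 in PN56 Klf5CN corneas, against 97.4, 85.4, 146 and 96.6 in PN56 WT corneas. It was 4.52-fold higher in Klf5CN (log2 2.18, SE 0.37, adjusted p = 0.00129), with no overlap. At PN11 it had 610, 726 and 417 in Klf5CN corneas, against 100.6, 143 and 111 in WT corneas, a difference of 2.29 (SE 0.43, adjusted p = 0.00557). Without PN56 Klf5CN replicate 4 the PN56 difference was 1.92 (adjusted p = 0.00463), and without PN11 Klf5CN replicate 3 the PN11 difference was 2.51 (adjusted p = 0.00779). In the mouse annotation C4a (chr17:34809092-34823460) is listed as a transcribed pseudogene and C4b (chr17:34728139-34743902) as protein coding, and the signal cannot be divided between them.

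Cfb (chr17:34856374-34862514) was a weaker signal throughout. It had 127, 92.3, 46.2 and 78.7 in PN56 Klf5CN corneas, against 26.4, 19.5, 31.4 and 9.1 in PN56 WT corneas, and was 4.03-fold higher in Klf5CN (log2 2.01, SE 0.35, adjusted p = 0.00167). The low WT signals limit that value, which was 1.33 with signals under 32 set to 32 (adjusted p = 0.00773), and 2.02 without PN56 Klf5CN replicate 4 (adjusted p = 0.00491). At PN11 the signals were 86.3, 115 and 74.2 in Klf5CN corneas, against 29.9, 39.8 and 25.7 in WT corneas, a difference of 1.53 (SE 0.41, adjusted p = 0.0377). Neither age showed an overlap between Klf5CN and WT. The PN11 call rested on few arrays, since leaving out 1 array in turn gave adjusted p of 0.0163 to 0.142 and took the call away in 6 of 14 cases (without PN56 WT replicate 2, PN11 Klf5CN replicate 1 or 2, or any PN11 WT replicate). Without PN11 Klf5CN replicate 3 it was 1.67 (adjusted p = 0.0498).

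The receptors for the C3 and C5 cleavage peptides, C3ar1 and C5ar1, were both higher in Klf5CN at PN56. C3ar1 (chr6:122847140-122856157), on its brightest probe set, had 119, 121, 28.3 and 121 in PN56 Klf5CN corneas, against 9.4, 13.4, 21.8 and 13.8 in PN56 WT corneas. Klf5CN replicate 3 lay close to the highest WT cornea, the other Klf5CN corneas were nearly equal, and the difference was 2.56 (SE 0.41, adjusted p = 0.00089). It was 3.09 without that replicate and 2.39 without PN56 Klf5CN replicate 4 (adjusted p = 0.00365). As the WT signals lay near the floor, it was 1.43 with signals under 32 set to 32 (adjusted p = 0.0364). The other C3ar1 probe sets were higher at PN56 by 1.83 and 2.72 (adjusted p = 0.00441 and 0.000471), and neither was called Present on a PN56 WT array.

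At PN11, C3ar1 had 207, 208 and 132 in Klf5CN corneas, against 50.5, 69.2 and 79.5 in WT corneas. All Klf5CN corneas were above all WT corneas, and the difference of 1.45 (SE 0.47) did not pass the test (adjusted p = 0.089), nor did the 1.67 without PN11 Klf5CN replicate 3 (adjusted p = 0.0885). Another C3ar1 probe set did pass, with 201, 169 and 81.0 in PN11 Klf5CN corneas, against 33.7, 53.2 and 45.9 in PN11 WT corneas (difference 1.69, SE 0.46, adjusted p = 0.0414).

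C5ar1 (chr7:16246743-16259540), the receptor through which C5a draws neutrophils, had 75.9, 69.0, 23.4 and 91.1 in PN56 Klf5CN corneas, against 3.1, 8.3, 19.5 and 9.1 in PN56 WT corneas. As 3 of the 4 WT signals were under 10 and set to it, the difference of 2.29 (SE 0.36, adjusted p = 0.000875) is limited by that floor. With signals under 32 set to 32 it was 0.97 and no longer over 2-fold, and without PN56 Klf5CN replicate 4 it was 2.07 (adjusted p = 0.00325). At PN11 C5ar1 had 114, 131 and 86.3 in Klf5CN corneas, against 26.7, 21.6 and 24.9 in WT corneas, a difference of 2.16 (SE 0.42, adjusted p = 0.00714), and 2.33 without PN11 Klf5CN replicate 3 (adjusted p = 0.0117). A dimmer C5ar1 probe set stood 1.42 above WT at PN56 and 0.77 at PN11, and neither value passed the test (adjusted p = 0.106 and 0.562).

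**Figure D2:**
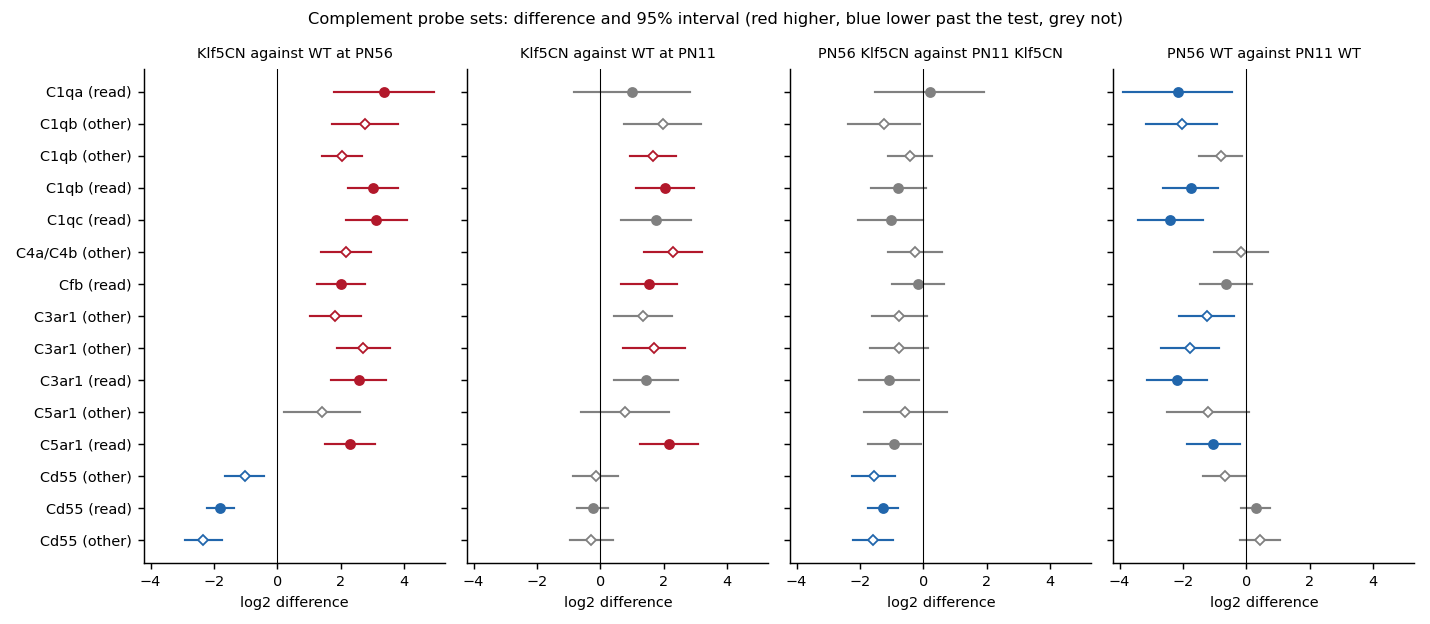
Log2 difference (circle, the probe set read for a gene; open diamond, another probe set) with its 95% interval for the 15 tested complement probe sets in Klf5CN against WT at PN56 and at PN11, and in PN56 against PN11 for Klf5CN and for WT; red is higher and blue lower past the test. At PN56 every probe set of Cd55 is lower in Klf5CN and the others are higher, with the dimmer C5ar1 probe set (1.42) short of the test.

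Cd55, which protects the body's own cells from complement, was lower in Klf5CN at PN56, and at PN11 its difference did not pass the test. On its brightest probe set Cd55 had 27.0, 21.8, 32.8 and 19.6 in PN56 Klf5CN corneas, against 80.1, 103, 84.5 and 79.3 in PN56 WT corneas. The groups lay far apart, and Cd55 was lower in Klf5CN by log2 -1.80 (SE 0.20, adjusted p = 8.91e-05), which is 3.48-fold. Without PN56 Klf5CN replicate 4 it was -1.68 (adjusted p = 0.000312). At PN11 it had 53.4, 51.0 and 78.1 in Klf5CN corneas, against 66.9, 67.5 and 78.3 in WT corneas. These ranges overlapped, and the difference was -0.24 (SE 0.23, adjusted p = 0.62), with a 95% interval of -0.74 to 0.25, and -0.44 without PN11 Klf5CN replicate 3 (adjusted p = 0.361).

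The Klf5CN effect on Cd55 was larger at PN56 than at PN11 in the test of that difference (log2 -1.55, SE 0.31, adjusted p = 0.0428). In that test 0.234% of all genes were called lower and 0.286% higher, and Cd55 was the only call among the 7 genes. The call was close to the threshold. Leaving out 1 array in turn gave adjusted p of 0.0115 to 0.131 with differences of -1.74 to -1.36. The call was lost in 12 of 14 cases, all but those without PN56 Klf5CN replicate 1 or 3. The fit without PN56 Klf5CN replicate 1, which gave the -1.74, read another Cd55 probe set, then the brightest. Without PN11 Klf5CN replicate 3 the difference was -1.36 (adjusted p = 0.091), and without PN56 Klf5CN replicate 4 it was -1.44 (adjusted p = 0.0555). For the other 6 genes the difference between ages ran from 0.13 (C5ar1) to 2.37 (C1qa), with adjusted p of 0.489 to 0.956. The C1qa value was 0.94 without PN11 Klf5CN replicate 3 (adjusted p = 0.689). With signals under 32 set to 32, C5ar1 turned to -0.80, C3ar1 to -0.0179 and Cfb to -0.0586, none of them past the test.

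A pair of further Cd55 probe sets gave the same direction at PN56. On the first of them, signals were 8.5, 26.1, 29.6 and 17.0 in PN56 Klf5CN corneas, against 92.4, 105, 106 and 82.4 in PN56 WT corneas (difference -2.33, SE 0.27, adjusted p = 0.000115). Its difference between the ages was -2.05 (SE 0.42, adjusted p = 0.0504), just short of the threshold. On the other, signals lay between 12.2 and 33.1 in PN56 Klf5CN corneas, against 31.8 and 59.3 in PN56 WT corneas, and here the ranges overlapped (difference -1.04, SE 0.29, adjusted p = 0.0259). The probe set shared by Cd55b and Cd55 was under 10 on all 14 arrays and was not tested.

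**Figure D3:**
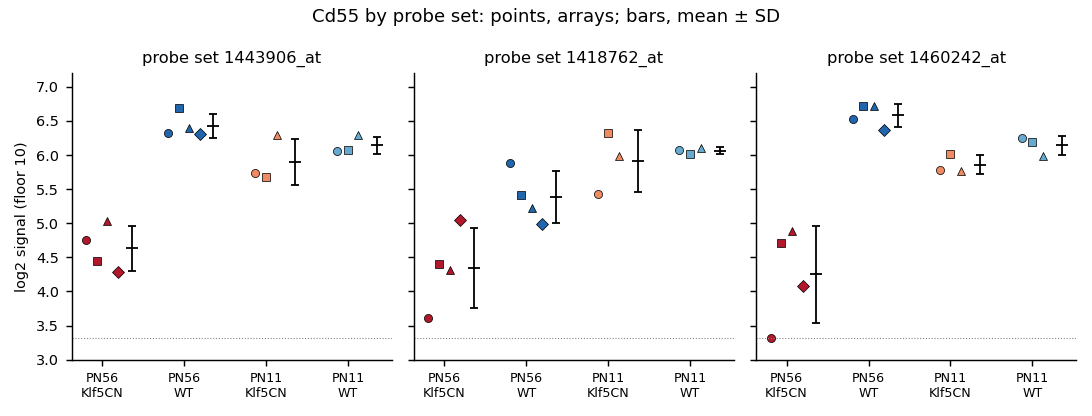
Log2 signal of the 3 Cd55 probe sets on each array (points, shaped by replicate as in the plot of all genes; dotted line, the floor of 10), with the mean ± SD of each of the 4 groups. PN56 Klf5CN is the lowest group on all 3 probe sets, and on the middle panel its highest array (33.1) lies above the lowest PN56 WT array (31.8).

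The Cd55 gene spans chr1:130429798-130465009, and its promoter window (chr1:130462695-130462994, minus strand) is shown, with capitals for the same motifs as above, because Cd55 alone was lower in Klf5CN. That window lies wholly inside the gene span, away from the annotated start of the gene. Which start site is used in the cornea was not examined.
Cd55: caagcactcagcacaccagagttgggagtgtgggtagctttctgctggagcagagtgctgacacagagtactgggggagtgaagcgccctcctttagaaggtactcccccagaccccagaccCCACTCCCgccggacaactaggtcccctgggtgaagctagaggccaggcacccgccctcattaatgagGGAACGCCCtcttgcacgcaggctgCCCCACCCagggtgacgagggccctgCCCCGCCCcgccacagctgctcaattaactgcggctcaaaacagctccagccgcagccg
The window held CCNCNCCC at bases 123, 216 and 242, where C1qb had 1 match and C1qc 2. It also held GGAANNNCC at base 191 and 4 CACCC boxes, and no GAGGAAGT. Whether Klf5 binds there was not measured in these data.

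In Klf5CN corneas 1 of the 7 genes, Cd55, was lower at PN56 than at PN11 and 0 were higher, where 13.4% of all genes were called lower and 4.8% higher. The Cd55 difference was -1.27 (SE 0.22, adjusted p = 0.00037) and the groups did not overlap. The C1q chains were at 0.20 (C1qa), -0.79 (C1qb) and -1.03 (C1qc), with adjusted p of 0.867, 0.132 and 0.103, and all of them overlapped between the ages. Without PN11 Klf5CN replicate 3 they were at -1.23, -1.01 and -1.57, and C1qc passed the test (adjusted p = 0.0177). C3ar1 was at -1.09 (adjusted p = 0.0628) and C5ar1 at -0.91 (adjusted p = 0.0777). The count was 2 without PN56 Klf5CN replicate 2 (C3ar1 added) and 3 without PN56 Klf5CN replicate 4 (C3ar1 and C5ar1 added), where C1qb on the probe set read with all arrays also passed (-1.09, adjusted p = 0.0335).

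In WT corneas, 5 of the 7 genes were lower at PN56 than at PN11 (C1qa, C1qb, C1qc, C3ar1 and C5ar1) and 0 were higher. Over all genes, 15.6% were called lower and 4.37% higher with age in WT, so a fall was common. On the log2 scale the difference was -2.40 for C1qc (SE 0.48, adjusted p = 0.00101), -2.20 for C3ar1 (SE 0.44, adjusted p = 0.00103) and -1.76 for C1qb (SE 0.40, adjusted p = 0.00266). It was -2.17 for C1qa (SE 0.80, adjusted p = 0.0406) and -1.04 for C5ar1 (SE 0.39, adjusted p = 0.0454), and none of these 5 genes overlapped between the ages. The C5ar1 value is limited by the floor, as 3 of its 4 PN56 WT signals were under 10 and set to it. Its PN11 WT signals were 21.6 to 26.7, and over 30 alternatives its difference ran from -1.28 to -0.0. The other C5ar1 probe set (-1.21, adjusted p = 0.126) and a C1qb probe set (-0.82, adjusted p = 0.0533) did not pass the test. The remaining C1qb probe set (-2.05, adjusted p = 0.0061) and the other C3ar1 probe sets did. The calls of C1qa and C5ar1 were fragile, and without any 1 of the 3 PN11 WT arrays, or without PN56 WT replicate 1, 2 or 4, the count of genes lower was 3 (C1qb, C1qc and C3ar1). Cfb was at -0.64 (adjusted p = 0.195), the shared C4a and C4b probe set at -0.17 (adjusted p = 0.769) and Cd55 at 0.29 (adjusted p = 0.317). The difference between the Klf5CN and WT age changes is the same quantity as the difference of the Klf5CN effects above, and of the 7 genes Cd55 alone passed that test.

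The order of the groups was the same for 5 of the genes. C1qb, C1qc, Cfb, C3ar1 and C5ar1 averaged highest in PN11 Klf5CN, then PN56 Klf5CN, PN11 WT and PN56 WT. On the log2 scale C1qb averaged 9.57 ± 0.42 in PN11 Klf5CN (SD, n = 3), 8.78 ± 0.97 in PN56 Klf5CN (SD, n = 4), 7.52 ± 0.28 in PN11 WT (SD, n = 3) and 5.76 ± 0.42 in PN56 WT (SD, n = 4). The first pair in that order did not differ beyond the test for any of the 5 genes, and the middle pair, which differs in both age and genotype, was not tested. C1qa had its PN56 Klf5CN mean (9.58 ± 0.91) above the PN11 Klf5CN mean (9.39 ± 2.46), which holds the low array. Cd55 was lowest in PN56 Klf5CN (4.63 ± 0.33), followed by PN11 Klf5CN (5.90 ± 0.34), PN11 WT (6.14 ± 0.13) and PN56 WT (6.43 ± 0.18).

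A list of 48 further complement genes was read alongside, of which 25 had a tested probe set. At PN56, 8 of the 25 were higher in Klf5CN and 0 lower, with a median difference of 0.82, where 7.1% of all genes were called higher and 1.63% lower. At PN11, 4 were higher and 0 lower, with a median of 0.35, where 3.8% of all genes were called higher and 1.48% lower. Without PN56 Klf5CN replicate 4 the PN56 count was 6, as C2 (0.99) and Clu (0.89) fell short of 2-fold, and without PN11 Klf5CN replicate 3 the PN11 count was 4 with the same genes. Among the classical pathway enzymes, C1ra, a protease of the C1 complex, was higher at PN56 by 1.50 (adjusted p = 0.000928), and C2, the partner of C4 in the C3-cleaving enzyme, by 1.14 (adjusted p = 0.00272). C1s1, which cleaves C4 and C2, stood at 0.68, short of 2-fold. C6, a part of the membrane attack complex, was higher by 1.36 (adjusted p = 0.0168), a value set by the floor because all 4 PN56 WT signals were under 10. Hc, the gene of C5, was at 0.27 (adjusted p = 0.525), with PN56 means near the floor (log2 3.66 in Klf5CN and 3.39 in WT).

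Regulators that act in fluid were also among the higher genes. Serping1, the C1 inhibitor, was higher at PN56 by 1.93 (adjusted p = 0.0051), and Clu (clusterin), which blocks the membrane attack complex and is also a gene of the corneal epithelium, by 1.10 (adjusted p = 0.00101). Cpn1, a carboxypeptidase that inactivates the C3 and C5 peptides, was higher at PN11 by 2.13 (adjusted p = 0.0014), a value limited by the floor, as the PN11 WT mean was log2 3.49. Its PN56 difference of 0.999 was just short of 2-fold (adjusted p = 0.0239). Of the membrane regulators besides Cd55, none passed the test at PN56: Cd46 stood at 0.06, Cd59a at -0.38, Cr1l at -0.42, Csmd1 at 0.08 and Susd4 at -0.59. For Csmd1 and Cd46 a 2-fold fall could not have been seen, as their PN56 WT means lay at the floor and near it. Csmd1 was higher at PN11 by 1.22 (adjusted p = 0.00552), from a WT mean of log2 3.63, near the floor.

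Receptors for fragments of cleaved C3 followed. Itgb2, the chain shared by the integrins that bind cleaved C3, was higher by 3.09 at PN56 and 2.41 at PN11 (adjusted p = 8.92e-05 and 0.00319). Itgax, a partner chain on myeloid cells, was higher by 2.05 and 1.91 (adjusted p = 0.00188 and 0.0146). The partner Itgam, on its brightest probe set, was at 0.35 and -0.61 (adjusted p = 0.433 and 0.307). Cd93, a surface protein of endothelial and myeloid cells, was higher at PN56 by 1.25 (adjusted p = 0.0132).

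With age, 9 of the 25 genes were lower and 2 higher at PN56 than at PN11 in Klf5CN, and 10 were lower and 2 higher in WT. Over all genes 13.4% were called lower and 4.8% higher in Klf5CN, and 15.6% and 4.37% in WT, so that 2 of 25 higher is near the share of all genes. Without PN11 Klf5CN replicate 3 the Klf5CN count of lower genes was 8, and without PN56 Klf5CN replicate 4 it was 10. In WT the lower genes were C1ra, C1s1, C2, Masp1, Colec11, Hc, Serping1, Cd59a, Itgb2 and Cd93, from -3.72 for Cd93 to -1.15 for Cd59a. Masp1, of the lectin pathway, was at -1.24 in Klf5CN and -1.93 in WT. Colec11, of the same pathway, was under 10 on every PN56 array, so its -2.04 in both genotypes is set by the floor. The higher genes in WT were Cpn1, by 2.91, and Itgam, by 2.11. The Cpn1 value is limited by the floor, as its PN11 WT mean was log2 3.49. No gene of the 25 passed the test of the difference between the Klf5CN effects.

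**Figure D4:**
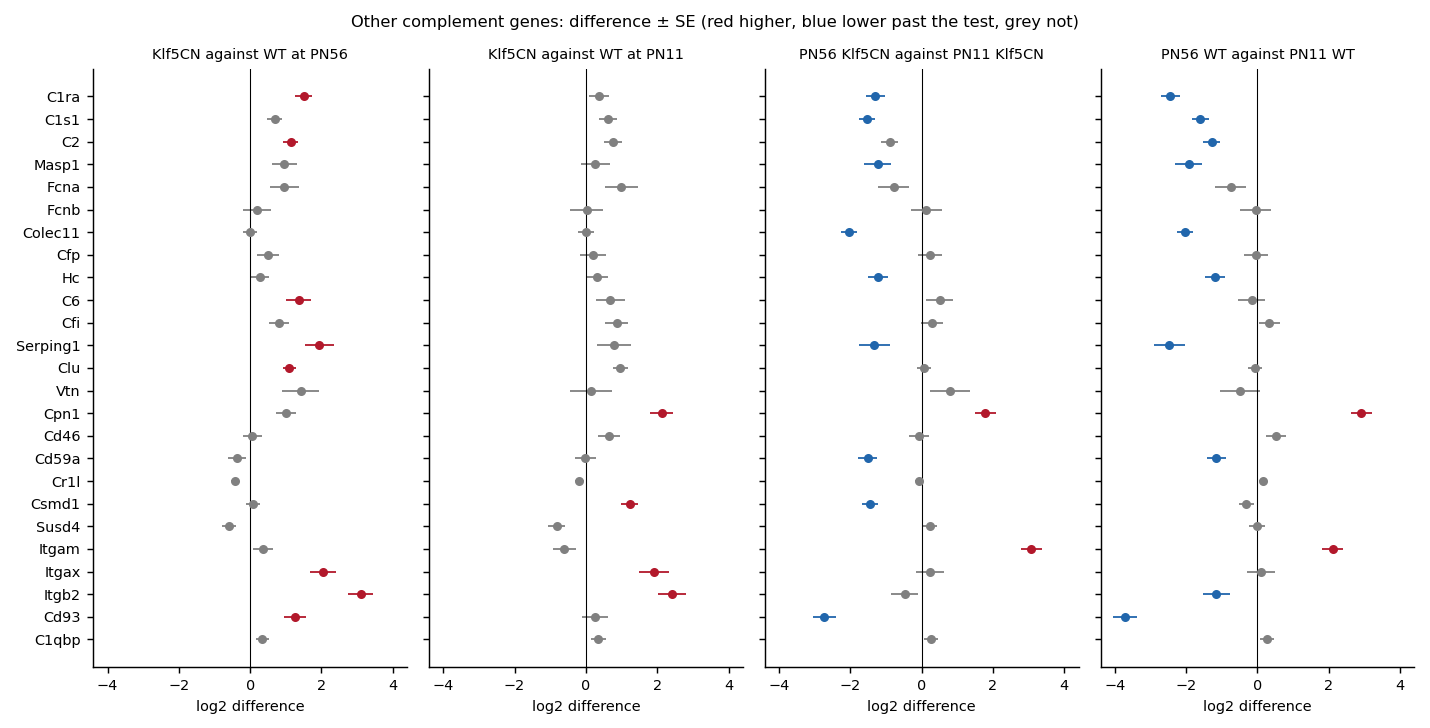
Log2 difference ± SE of the 25 further complement genes with a tested probe set, in Klf5CN against WT at PN56 and at PN11, and in PN56 against PN11 for Klf5CN and for WT; red is higher and blue lower past the test, grey neither. No gene is lower past the test in Klf5CN at either age, though some, such as Susd4 (-0.59 at PN56 and -0.82 at PN11), lie below WT. Itgb2 (3.09 at PN56) is the farthest to the right at that age.

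Markers of macrophages and neutrophils were higher in Klf5CN at both ages, as were the complement genes other than Cd55, not all of them past the test at PN11. Of 12 macrophage markers, all tested, 9 were higher in Klf5CN at PN56 and 8 at PN11, and with age 7 were lower in Klf5CN and 9 in WT. The 7 in Klf5CN (median -1.21 over the 12) stood beside no call among the C1q chains and the receptors. Of those genes, C1qb (-0.79), C1qc (-1.03), C3ar1 (-1.09) and C5ar1 (-0.91) were also lower in value, and C1qa was at 0.20. Without PN11 Klf5CN replicate 3, 7 markers were again lower (median -1.36). C1qa was then at -1.23, C1qb at -1.01 and C1qc at -1.57, the last past the test. The summed macrophage signal was 1758 to 6612 in PN56 Klf5CN corneas against 666 to 1174 in PN56 WT corneas, and 6692 to 11479 in PN11 Klf5CN corneas against 2362 to 2952 in PN11 WT corneas. No macrophage marker was under 10 on all arrays of a group. Examples are the lysozyme gene Lyz2, higher by 2.25 at PN56 and 1.63 at PN11, the mannose receptor Mrc1, higher by 3.73 and 2.78, and Cd14, higher by 2.65 and 3.42. Of 10 neutrophil markers 5 were tested, and S100a8, S100a9, Csf3r and Cxcr2 were higher at both ages. With age in WT, where 5 complement genes were lower, 0 neutrophil markers were lower and S100a9 was higher by 1.83 (adjusted p = 0.026). The summed neutrophil signal was 2026 to 8061 in PN56 Klf5CN corneas against 118 to 1012 in PN56 WT corneas, and 2402 to 4178 in PN11 Klf5CN corneas against 177 to 325 in PN11 WT corneas. Cxcr2 was under 10 on all PN56 WT arrays. Without PN56 Klf5CN replicate 4 the PN56 counts were 8 macrophage and 4 neutrophil markers, and without PN11 Klf5CN replicate 3 the PN11 counts were 8 and 4. The part of leukocyte number in the complement differences was not tested.

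Other cell types moved less uniformly. Dendritic cell genes had 2 of 5 tested higher in Klf5CN at both ages, and T cell genes 2 of 3, where Cd3g was under 10 on all PN11 WT arrays. B and plasma cell genes had 3 of 4 higher at PN56 and 0 at PN11, with summed signals of 682 to 9800 in PN56 Klf5CN corneas against 87.0 to 199.7 in PN56 WT corneas, and Jchain was under 10 on all PN11 WT arrays. Mast cell genes had 2 of 6 higher at PN56 and 0 at PN11. Blood vessel markers had 0 of 6 called at either age, while 5 were lower at PN56 than at PN11 in Klf5CN and all 6 in WT. Keratocyte genes had 3 of 9 higher at PN56 (Col1a1, Col1a2 and Thy1) and 1 at PN11, and 7 lower with age in WT. Of 8 corneal epithelial genes 1 was called at each age (Clu at PN56, Epcam at PN11), and their summed signal was 36269 to 61081 in PN56 Klf5CN against 31682 to 37358 in PN56 WT, and no marker of this labelled tissue was under 10 on all arrays of a group. Conjunctival genes had 1 of 3 higher at PN56 and 1 lower at PN11, and Muc5ac was under 10 on all PN11 arrays. Corneal endothelial genes had 1 of 4 lower at PN56, iris and ciliary body genes 1 of 5 lower, and lens genes 0 of 5 called. Without the 2 arrays of raised control ratios, left out 1 at a time, calls of mast cell, keratocyte and conjunctival genes changed. At PN56, 4 mast cell genes were called without PN11 Klf5CN replicate 3, and 2 keratocyte and 2 conjunctival genes without PN56 Klf5CN replicate 4. At PN11, 0 keratocyte and 0 conjunctival genes were called without PN11 Klf5CN replicate 3. Lens sums were 110 to 8749 over the Klf5CN arrays and 431.5 to 4900 over the WT arrays.

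Within the PN56 groups, the cornea at the edge of its group in complement was also at the edge in leukocyte markers. PN56 Klf5CN replicate 3 was the lowest of its 4 arrays on all 6 genes that were higher in Klf5CN, on 12 of 12 macrophage markers and on 5 of 5 neutrophil markers, while it was lowest on 32.2% of all genes. PN56 WT replicate 3 was the highest of its 4 on all 6 genes and on 9 of 12 macrophage markers, against 28.4% of all genes. It was also the highest on 5 of 5 neutrophil markers, but for Cxcr2 this was a tie of all 4 arrays at the floor. PN11 Klf5CN replicate 3 was the lowest of 3 on all 6 genes, on 9 of 12 macrophage markers and on 2 of 5 neutrophil markers, against 39.5% of all genes, and was the highest on another 2 neutrophil markers. Actb control ratios of these arrays were 1.33, 1.31 and 3.07, so the first and second of them did not stand apart in that measure. The array quality weights of an alternative fit were 0.445, 0.961 and 0.218 for them. By that measure the first, PN56 Klf5CN replicate 3, was also among the arrays of weight under 0.5. As deviations from group means over the 14 arrays, the shared C4a and C4b probe set followed C1qb at r = 0.98, C3ar1 followed C1qb at 0.94 and C5ar1 at 0.93. The other chains gave lower values for the shared C4 probe set, C3ar1 and C5ar1: 0.85, 0.89 and 0.81 with C1qc, and 0.67, 0.67 and 0.64 with C1qa. C1qa followed C1qb itself at 0.67. Cd55 ran against the shared C4 probe set at -0.76, and less strongly against the others, down to -0.32 with Cfb. Cfb followed C1qb at 0.60. These correlations describe arrays that share each library, scaling and RNA quality, and 4 group means were removed from them.

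**Figure D5:**
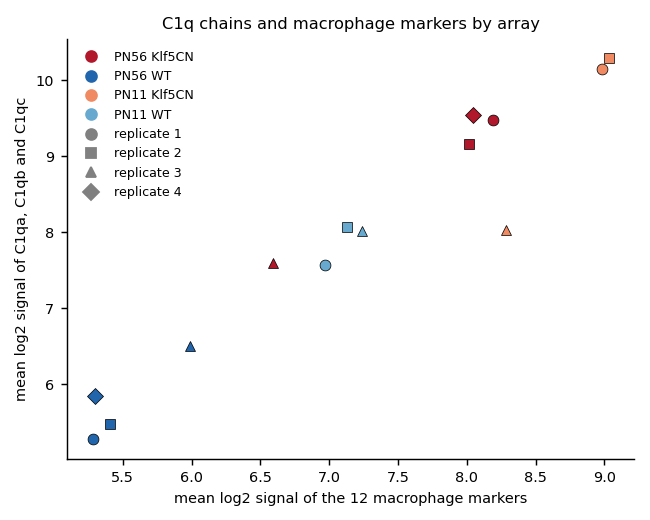
Mean log2 signal of C1qa, C1qb and C1qc against the mean log2 signal of the 12 macrophage markers, 1 point for each of the 14 arrays (colour, group; shape, replicate). Arrays high on the markers tend to be high on C1q, but the order within a group is not always the same. PN56 Klf5CN replicate 1 (8.19 on the markers, 9.48 on C1q) and replicate 4 (8.04 and 9.54) are an example. PN11 Klf5CN replicate 3 (8.28 on the markers, 8.03 on C1q) lies below the PN11 Klf5CN arrays beside it.

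Over all 14 arrays, the genes whose pattern was most like the mean of the C1q chains were Cd163 (r = 0.98), Ms4a7, Esyt1, Ms4a6c and Tnfaip8l2 (r = 0.97 for the last). Of these, Cd163 and Ms4a7 are macrophage markers of the list above. For C3ar1 they were Lyz2 (r = 0.99), Ms4a6c, Csf1r, Tyrobp and Lyz1, and for C5ar1 Sash3 (r = 0.99), Fxyd5, Ms4a6d, Clec4a3 and Myo1g. The shared C4 probe set was most like Ipcef1 (r = 0.99), AI662270, Wfdc17, Cd300lf and Mpeg1. Cfb was most like Nfil3 (r = 0.98), Ncf4, Lbp, Stxbp6 and Ncf1, where Ncf4 and Ncf1 encode parts of the phagocyte oxidase. Cd55 was most like Osgin2 (r = 0.95), Fam174a, Hcar1, Trnau1ap and Smoc1. These r values largely carry the differences between the 4 groups and are given as a description.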

How the data were processed

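RNA of 14 mouse cornea samples was labelled and hybridised to Affymetrix arrays by the authors, who computed the deposited intensity values (signals) in GCOS 1.4 and scaled each array to a trimmed mean of 150. Other deposited values are the number of Present calls in each group, used as given, and the authors' own pairwise comparison calls, which were not used. Each sample is a mouse, so p-values cover the spread between mice. Array number limits the precision: medians ran from 25.9 to 35.2 and 29.5% of signals lay under 10. Samples were grouped by GEO labels. Signals under 10 were set to 10 and log2 was taken. Probe sets above 20 on at least 3 arrays (29416 of 45101) were fitted over 4 groups with limma 3.58.1 in R 4.3.3 (lmFit, eBayes with trend), two-sided, with Benjamini-Hochberg adjustment over all of them, and tested on simulated data. A gene was read by its probe set of 1 symbol with the highest mean log2 signal. Single genes were also tested by exact permutation (scipy 1.17.1, Python 3.11.15). Of the symbols, 98 had no match in RefSeq, which also gave promoters (GRCm38.p6). Members and lists were chosen with earlier results of these data known. All members were named, and of the other complement genes those past the test in a comparison, with a few others as values, of marker lists the brightest or those called. Besides, 15 settings of processing and test, 14 fits that leave out 1 array, and 1 chosen after seeing the data (arrays of quality weight under 0.5 left out) were tried. The lists were also refitted without each of the 2 arrays of raised control ratios, a choice likewise made after seeing the data.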

Additional observations from a re-analysis of the deposited data

Results flagged for a closer look

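Of 16 sets of 4 PN56 arrays examined (8 probe sets in Klf5CN and in WT), 2 held an array far from the others, where chance flags about 1 in 20. C3ar1 on PN56 Klf5CN replicate 3 had a log2 signal of 4.82 while the other Klf5CN arrays lay close together between 6.90 and 6.92. C5ar1 on PN56 WT replicate 3 had 4.29 while the other WT arrays lay at the floor of 3.32, so the distance there is set by the floor. The Klf5CN effect on Cd55 differed between the ages by log2 -1.55 in the fit's own test of that difference (SE 0.31, adjusted p = 0.0428). That call was lost in 12 of 14 fits that leave out 1 array. The fit without PN56 Klf5CN replicate 1, which kept the call, read another Cd55 probe set. On its brightest probe set Cd55 was lower in 4 of 4 PN56 Klf5CN corneas than in any PN56 WT cornea. On another probe set the highest PN56 Klf5CN signal (33.1) lay above the lowest PN56 WT signal (31.8).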

How the results depend on the processing

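The counts at PN56 (5 to 6 genes higher and 1 lower in Klf5CN) and the absence of genes higher with age in WT held under all 30 alternatives. At PN11 the count of 3 higher genes became 5 with log2 of signal plus 16 or the rank test of the methods, and 6 with array quality weights or without the arrays of weight under 0.5 (chosen after seeing the data), and ran from 1 to 5 with 1 array left out. The 5 genes lower with age in WT became 2 with signals under 32 set to 32 and 3 with log2 of signal plus 16 or no filter (3 to 5 with 1 array left out). The 1 gene lower with age in Klf5CN became 0 with either of those changes of scale, 4 with array medians subtracted, 3 with quality weights or without the arrays of low weight, and 2 with the rank test (1 to 3 with 1 array left out). The 1 gene whose effect differed between ages became 0 with quantile normalization, array medians subtracted, no filter or the replicate block (0 to 1 with 1 array left out). The cause was not tested. Leaving out an array can also change which probe set is read for a gene.

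With the replicate block, 2 genes were higher at PN11 and 4 lower with age in WT. The labels do not say whether equal replicate numbers mark littermates. Deviations of same-numbered Klf5CN and WT arrays correlated at -0.20 to 0.09 over 7 pairs, and 3 of 7 Klf5CN arrays correlated best with their own number. With so few arrays in a group, these values cannot decide whether the numbers pair the samples. Subtracting array medians moved the median of all genes by -0.23 at PN56 and by -0.13 in the difference between ages.

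Of 1036 alternative values of single genes, 933 kept direction and call, 55 lost the call, 31 gained it and 17 changed sign, none of these past the test. C1qa with age in Klf5CN became -0.76 with quality weights and -0.77 without the arrays of low weight (-1.23 to 0.92 with 1 array left out), and Cfb there 0.0098 with the replicate block and 0.11 without the arrays of low weight (-0.38 to 0.10 with 1 left out). The difference between ages became -0.0586 for Cfb, -0.0179 for C3ar1 and -0.80 for C5ar1 with signals under 32 set to 32. For C5ar1 it was -0.0541 with log2 of signal plus 16 and -0.0032 with array medians subtracted (-0.0925 to 0.56 with 1 array left out). Cd55 with age in WT was -0.68 on its probe set of smallest p.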
